A study of Mus musculus with 4 samples.

Results

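The values of 32 genes that mark B lymphocytes, T lymphocytes and natural killer (NK) cells were examined in bone of the mouse skull vault. The genes were taken by name and not by a limit on a measured value, but they were chosen with earlier results of these data known. All 32 are among the 23946 gene symbols of the files. They were sorted by what is known of them into 7 genes of B cell precursors (*Vpreb1*, *Vpreb3*, *Igll1*, *Rag1*, *Rag2*, *Dntt* and *Il7r*), 8 genes that the B lineage uses through most of its development (*Cd79a*, *Cd79b*, *Pax5*, *Ebf1*, *Blnk*, *Blk*, *Pou2af1* and *Cd72*), 9 genes highest in mature B cells (*Ms4a1*, *Cd22*, *Bank1*, *Spib*, *Cd37*, *Cr2*, *Fcer2a*, *Tnfrsf13c* and *Bach2*) and 8 genes of T and NK cells (*Cd3e*, *Cd3d*, *Cd3g*, *Cd4*, *Cd8a*, *Lck*, *Zap70* and *Nkg7*). RNA came from the frontal and the parietal bones of mice of the C57BL/6J background, either wild-type or *Twist1*+/-, on postnatal day 21. For each genotype and bone, 1 library is analysed here. The *Twist1*+/- mice carry 1 disrupted copy of *Twist1* in every cell, wild-type mice carry none, and the labels name 12 mice for each strain without saying how many entered a library. The bones were taken with pericranium, bone plate and dura mater, so that their RNA includes that of blood-forming marrow and of tissue on either face of the bone. Levels are FPKM, fragment counts scaled to the length of the transcript and the size of the library. With 1 library per condition the error between replicates is unknown, no test was made, and every difference is one between libraries.

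B cells are made in the marrow from lymphoid progenitors under the cytokine IL-7. In the earliest B cell precursors the RAG recombinase cuts and joins the segments of the immunoglobulin heavy chain gene, terminal transferase adds bases at the joints, and the new heavy chain is then tested on the cell surface together with a surrogate light chain made of the products of *Vpreb1* and *Igll1*. Cells that pass this test divide, rearrange a light chain gene, and leave the marrow as immature B cells that mature in the spleen, from where mature B cells recirculate to marrow. T cells mature in the thymus, and those found in marrow have returned from the blood.

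For 4 genes the 150 bases before the RefSeq start are shown, since these genes mark the contrasts described here. *Igll1* was higher in wild-type parietal than in wild-type frontal bone, *Rag1*, another gene of precursors, was lower there, and *Spib* and *Tnfrsf13c* are genes of mature B cells that were lower there. Each is written 5′ to 3′ along its gene, and its position was found by an exact match to mm9, the genome build of the files. Capitals mark the letters CAGCTG or CAGGTG on either strand, a form of the E-box that E-proteins and their bHLH partners, Twist1 among them, can bind.

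Igll1, chr16:16864079-16864228, reverse strand: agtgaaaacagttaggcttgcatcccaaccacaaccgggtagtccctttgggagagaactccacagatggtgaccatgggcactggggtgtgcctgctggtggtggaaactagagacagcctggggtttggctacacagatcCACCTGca
Rag1, chr2:101489690-101489839, reverse strand: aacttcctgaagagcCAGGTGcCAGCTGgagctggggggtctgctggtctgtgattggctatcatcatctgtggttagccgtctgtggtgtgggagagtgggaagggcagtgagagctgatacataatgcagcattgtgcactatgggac
Spib, chr7:51787442-51787591, reverse strand: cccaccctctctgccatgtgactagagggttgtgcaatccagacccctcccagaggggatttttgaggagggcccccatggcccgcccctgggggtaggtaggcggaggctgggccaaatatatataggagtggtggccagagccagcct
Tnfrsf13c, chr15:82054811-82054960, reverse strand: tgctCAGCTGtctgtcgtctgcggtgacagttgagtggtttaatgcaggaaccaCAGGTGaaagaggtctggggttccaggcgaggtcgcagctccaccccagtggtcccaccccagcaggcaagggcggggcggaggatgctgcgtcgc

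RefSeq held 34 start sites for 28 of the 32 genes. The E-box letters were found within 250 bases before the start in 16 of these 34 windows (47.1%), against 27.7% of the 32851 windows of all genes. By group they stood in 3 of 7 windows of precursor genes, 2 of 7 of lineage genes, 6 of 10 of mature B genes and 5 of 10 of T and NK genes. *Spib*, *Pax5*, *Ebf1* and *Cd72* had none, so windows with and without the letters occurred among the genes that were lower in wild-type parietal bone. A core of the motif of the B cell factor EBF1, TCCCNNGGG on either strand, was found in 1 of 34 windows, that of *Cd22*, and in 5.6% of all windows. The octamer ATTTGCAT, which Pou2af1 and its POU partners recognise, was found 45 bases before the start of *Vpreb3* and 130 bases before that of *Blnk*, in 2 of 34 windows (5.88%) against 1.6% of all windows. A match is a description of letters and gives no measure of binding.

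Some facts of the libraries bear on these values. *Twist1* was at 59.0 FPKM in the frontal bone of wild type and at 30.4 in that of *Twist1*+/- mice, but the parietal values were 52.5 for wild type and 50.7 for the library labelled *Twist1*+/-, a log2 ratio of -0.05 that became 0.03 when the libraries were scaled to the same median ratio and -0.58 with the trend by GC content (described next) subtracted. Every direction given for that library rests on its label. The bone genes *Bglap*, *Sp7*, *Ibsp* and *Dmp1* were present in all 4 libraries, the lowest of these values being 56.9 FPKM for *Sp7* in wild-type parietal bone, while *Col1a1* and *Col1a2* are listed at 0 in every library except wild-type parietal, so an exact 0 is not read as absence. None of the 32 genes is listed at 0 in any library. The parietal ratio of *Twist1*+/- to wild type moved with the GC content of the transcript. Its median log2 ratio was -0.58 in the lowest and 0.61 in the highest of 20 GC classes of genes. The ratio of labelled *Twist1*+/- parietal to *Twist1*+/- frontal bone moved with it too, from -0.43 in the lowest to 0.42 in the highest class. Values with these trends subtracted are given for the calls they ended and for some other genes. The summed FPKM of 10 skeletal muscle genes was 121 in frontal and 3639 in parietal bone of wild type, and 1419 and 1844 in those labelled *Twist1*+/-. The 8 brain and meninges genes summed to 2263 and 112 FPKM in wild type and to 645 and 753 FPKM in *Twist1*+/-. Their part in the results was not tested.

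Wild-type parietal bone had the lowest value of the 4 libraries for 27 of the 32 genes. Among all 14760 genes at or above 1 FPKM in any library, 35.1% were lowest there. All 8 lineage genes and all 9 mature B genes were lowest in wild-type parietal bone, as were 7 of 8 T and NK genes, but only 3 of 7 precursor genes, namely *Vpreb3*, *Rag1* and *Il7r*. The 5 genes that were not lowest there were *Vpreb1*, *Igll1*, *Rag2*, *Dntt* and *Cd4*. Wild-type frontal bone had the highest value for 20 of the 32 genes, against 27.0% of all genes. The median level of the 32 genes was 8.65 FPKM in wild-type frontal, 7.74 in *Twist1*+/- frontal, 4.91 in labelled *Twist1*+/- parietal and 2.33 in wild-type parietal bone. Where 4 values follow a gene without further words, they are those of frontal and parietal bone of wild type and then of frontal and labelled parietal bone of *Twist1*+/-. In bulk RNA, fewer cells of a type and less RNA per cell cannot be told apart.

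**Figure D1:**
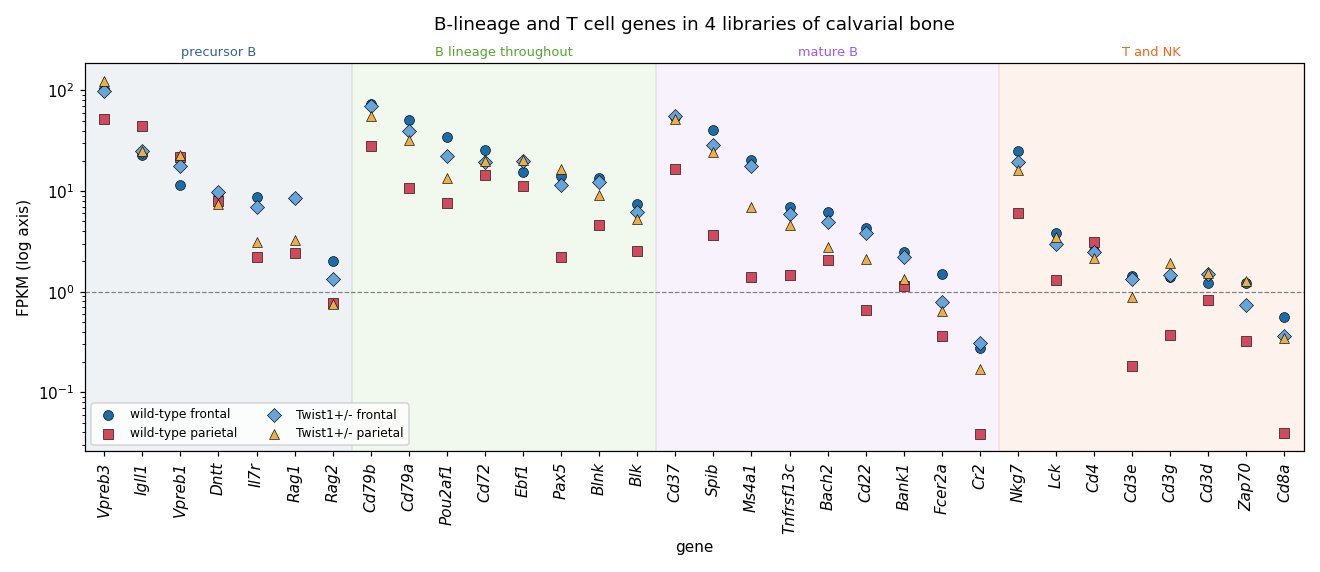
FPKM on a log axis of each of the 32 genes, grouped by stage and lineage, with 1 symbol per library and a dashed line at 1 FPKM. The red squares of wild-type parietal bone lie lowest for 27 genes, while for *Igll1* (43.99 FPKM) they lie highest.

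*Igll1* and *Vpreb1*, the surrogate light chain genes, did not share the low levels of wild-type parietal bone. *Igll1*, which encodes the λ5 component, was at 22.9 FPKM in frontal and 43.99 in parietal bone of wild type, and at 24.9 in frontal and 24.9 in labelled parietal bone of *Twist1*+/-. Wild-type parietal bone was thus the highest library, 1.92 times above wild-type frontal bone, and the other libraries lay close to each other. *Vpreb1*, which encodes the VpreB component, was at 11.5 FPKM in frontal and 21.7 in parietal bone of wild type, and at 17.8 in frontal and 22.7 in labelled parietal bone of *Twist1*+/-. Here the parietal libraries were alike and wild-type frontal bone was the lowest. In mm9 *Igll1* (chromosome 16, 16860764 to 16864078) and *Vpreb1* (16868495 to 16870936) lie on the reverse strand with 4416 bases between them. *Vpreb1* shares 19.7% of its 75-base windows, the length of a read, with its copy *Vpreb2*, so reads could have been split between them. *Vpreb2* was at 5.11, 6.55, 4.68 and 11.1 FPKM in the libraries in the same order, so that its level too was higher in wild-type parietal than in wild-type frontal bone. *Igll1* shares no window with another gene. *Vpreb3*, a related gene of precursors whose product stays inside the cell, was the highest of the 32 genes in every library, at 103 FPKM in frontal and 52.5 in parietal bone of wild type, and at 98.8 in frontal and 124 in labelled parietal bone of *Twist1*+/-. Unlike *Igll1* and *Vpreb1* it was lowest in wild-type parietal bone, by 1.96-fold against wild-type frontal bone.

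In FPKM as given, the recombinase genes differed more between the bones than between the genotypes. *Rag1* was at 8.62 FPKM in the frontal bone of wild type and 8.49 in that of *Twist1*+/-, but at 2.43 and 3.28 in the parietal bones. *Rag2*, its partner subunit, was at 2.01 and 1.33 FPKM in the frontal libraries and at 0.778 and 0.752 in the parietal libraries, in the order wild type and *Twist1*+/-. *Il7r*, the receptor chain for IL-7, was at 8.68 and 6.99 FPKM in the frontal libraries and at 2.19 and 3.13 in the parietal libraries. For these 3 genes both parietal libraries lay below both frontal libraries. In wild-type bone the frontal level was 3.55 times the parietal level for *Rag1*, 2.59 times for *Rag2* and 3.96 times for *Il7r*. They are the precursor genes of lowest GC content (40.5% to 44.1%), and with the GC trend subtracted the log2 ratio of labelled *Twist1*+/- to wild-type parietal bone went from 0.44 to 0.96 for *Rag1*, from -0.05 to 0.53 for *Rag2* and from 0.52 to 1.09 for *Il7r*. *Rag1* lies within the annotated span of *B230118H07Rik* on its own strand, and that gene was highest in wild-type parietal bone (13.8 FPKM). *Dntt*, which encodes terminal transferase, varied least of the precursor genes, at 9.58 and 8.06 FPKM in frontal and parietal bone of wild type and at 9.72 and 7.40 FPKM in those of *Twist1*+/-.

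The 8 lineage genes were all lowest in wild-type parietal bone, by factors that differed widely among them. *Pax5*, the factor that commits cells to the B lineage, was at 14.0 FPKM in frontal and 2.23 in parietal bone of wild type, and at 11.5 in frontal and 16.7 in labelled parietal bone of *Twist1*+/-. The other libraries were thus within a narrow range and wild-type parietal bone lay 6.28-fold below wild-type frontal and 7.5-fold below labelled *Twist1*+/- parietal bone. *Ebf1*, the factor that acts before and with *Pax5*, was at 15.6 FPKM in frontal and 11.1 in parietal bone of wild type, a difference of 1.4-fold. It was at 20.5 FPKM in labelled *Twist1*+/- parietal bone, with a log2 ratio of 0.04 to *Twist1*+/- frontal bone. *Ebf1* is also used by stromal and fat cell precursors, so its level is not that of B cells alone. *Cd79a*, a signalling chain of the B cell receptor, was at 50.3, 10.8, 39.9 and 32.1 FPKM, and its partner chain *Cd79b* at 74.2, 28.1, 70.8 and 56.1 FPKM. Wild-type parietal bone was lowest for both chains, 4.68-fold below wild-type frontal bone for *Cd79a* and 2.64-fold for *Cd79b*.

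*Pou2af1*, a coactivator of octamer-dependent genes, was at 34.2 FPKM in frontal and 7.66 in parietal bone of wild type, and at 22.6 in frontal and 13.6 in labelled parietal bone of *Twist1*+/-, so that both parietal libraries were below both frontal ones. *Blnk*, the adaptor below the receptor, was at 13.3, 4.57, 12.4 and 9.11 FPKM, and the Src-family kinase gene *Blk* was at 7.44, 2.53, 6.14 and 5.27 FPKM. These 2 genes had nearly the same ratio between the wild-type bones, 2.92-fold and 2.94-fold, just under the 3-fold limit used here. *Cd72*, an inhibitory co-receptor, was at 25.8, 14.5, 19.4 and 20.1 FPKM.

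Among those of the 32 genes that reached 1 FPKM, the largest differences between the wild-type bones were those of 2 mature B cell genes, *Ms4a1* and *Spib*. *Ms4a1*, which encodes CD20, was at 20.6 FPKM in frontal and 1.4 in parietal bone of wild type, and at 17.7 in frontal and 6.97 in labelled parietal bone of *Twist1*+/-. The frontal libraries were close, and wild-type parietal bone lay 14.7-fold below wild-type frontal and 4.98-fold below labelled *Twist1*+/- parietal bone. *Spib*, an Ets factor of mature B cells and plasmacytoid dendritic cells, was at 40.5, 3.7, 28.9 and 24.5 FPKM. Wild-type parietal bone stood alone, 11.0-fold below wild-type frontal and 6.63-fold below labelled *Twist1*+/- parietal bone. *Cd37*, a tetraspanin, was at 54.8, 16.5, 55.8 and 52.3 FPKM, so that 3 libraries were nearly level and wild-type parietal bone was 3.32-fold below wild-type frontal bone. *Cd22*, an inhibitory receptor, was at 4.33, 0.663, 3.79 and 2.09 FPKM. *Tnfrsf13c*, the receptor for the survival factor BAFF, was at 6.9, 1.47, 5.86 and 4.56 FPKM. For both, wild-type parietal bone was lowest and labelled *Twist1*+/- parietal bone lay between it and the frontal bones.

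The remaining genes of mature B cells were lower. *Bach2*, a repressor that holds back plasma cell fate, was at 6.2 FPKM in frontal and 2.06 in parietal bone of wild type, and at 4.98 in frontal and 2.81 in labelled parietal bone of *Twist1*+/-. *Bank1*, a scaffold of receptor signalling, was at 2.5, 1.13, 2.2 and 1.35 FPKM. For both genes the parietal libraries lay below the frontal ones. With the GC trend subtracted the log2 ratios between the parietal bones were 0.62 for *Bach2* and 0.79 for *Bank1*. Those between the *Twist1*+/- bones were then -0.74 and -0.43. *Fcer2a*, which encodes CD23 of follicular B cells, was at 1.5, 0.36, 0.786 and 0.638 FPKM. *Cr2*, which encodes complement receptor 2, reached 1 FPKM in no library and was at 0.275, 0.0387, 0.307 and 0.171 FPKM, levels at which few reads lie behind a value.

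The T and NK genes other than *Nkg7* were low, with no value above 3.86 FPKM. *Cd3e* was at 1.42 FPKM in frontal and 0.183 in parietal bone of wild type, and at 1.35 in frontal and 0.887 in labelled parietal bone of *Twist1*+/-. *Cd3g* was at 1.41, 0.373, 1.46 and 1.93 FPKM, and *Cd3d* at 1.21, 0.819, 1.5 and 1.55 FPKM. The products of these 3 genes form the CD3 signalling complex of the T cell receptor, and the genes lie next to each other on chromosome 9. Wild-type parietal bone was lowest for all of them, by 7.73-fold, 3.79-fold and 1.48-fold against wild-type frontal bone, so the neighbours did not keep 1 ratio. *Lck* and *Zap70*, kinases below that receptor, were at 3.86, 1.3, 2.96 and 3.46 FPKM and at 1.21, 0.325, 0.734 and 1.28 FPKM. *Cd8a*, the co-receptor of cytotoxic T cells, was under 1 FPKM in every library, at 0.565, 0.0394, 0.363 and 0.347 FPKM.

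*Cd4* was the only T and NK gene with its highest value in wild-type parietal bone, at 2.52 and 3.15 FPKM in frontal and parietal bone of wild type and at 2.46 and 2.17 FPKM in those of *Twist1*+/-. It is the co-receptor of helper T cells, and dendritic cells and some macrophages can express it too. All 9 macrophage genes of a separate list were higher in wild-type parietal than in wild-type frontal bone, with a median difference of 0.79 in log2(FPKM + 1) and summed levels of 687 and 366 FPKM. Which cells the *Cd4* RNA came from was not tested. *Nkg7*, a granule gene of NK and cytotoxic T cells, was at 24.9, 6.09, 19.5 and 16.4 FPKM. It was the highest of the 8 genes in every library, and 10 other NK and cytotoxic genes of a list ranged in wild-type frontal bone from 0.239 FPKM (*Gzmb*) to 10.6 FPKM (*Ccl5*).

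Between the wild-type bones, 16 of the 32 genes were more than 3-fold lower in parietal bone and none was more than 3-fold higher. Such calls ask for at least 1 FPKM in the higher library, which 30 of the 32 reached. Of all 14214 genes at that floor, 9.2% were lower and 4.07% higher by this rule. The 16 genes were 2 of 7 precursor genes (*Rag1* and *Il7r*), 3 of 8 lineage genes (*Cd79a*, *Pax5* and *Pou2af1*), 7 of 9 mature B genes (all except *Bank1* and *Cr2*) and 4 of 8 T and NK genes (*Cd3e*, *Cd3g*, *Zap70* and *Nkg7*). The median difference in log2(FPKM + 1), which shrinks differences between low values, was -0.76 for precursor, -1.37 for lineage, -1.67 for mature B and -0.78 for T and NK genes, against -0.01 for all genes at the floor. *Bach2* stood just past the limit, at 3.003-fold, and *Lck* just short of it, at 2.98-fold. With 1 FPKM added to each value, 10 genes were past 3-fold.

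In the comparison of parietal bones, 8 of the 32 genes were more than 3-fold higher in the library labelled *Twist1*+/- than in wild type and none was lower by that factor. At least 1 FPKM in the higher library was reached by 27 genes, and 5.25% of all 13914 genes at this floor were higher and 2.94% lower. The 8 genes were *Pax5*, the 5 mature B genes *Spib*, *Ms4a1*, *Cd37*, *Cd22* and *Tnfrsf13c*, and the T cell genes *Cd3g* (5.16-fold) and *Zap70* (3.94-fold). With the GC trend subtracted 6 of them stayed past 3-fold, while the log2 ratio of *Cd37* went from 1.66 to 1.14 and that of *Zap70* from 1.98 to 1.45, both short of the limit. None was a gene of precursors, whose log2 ratios ran from -0.82 for *Igll1* to 1.24 for *Vpreb3*, with those of *Vpreb1*, *Rag2* and *Dntt* near 0 and of the other sign once the GC trend was subtracted. *Cd79a* was 2.98-fold higher and was not called. The median difference in log2(FPKM + 1) was 0.06 for precursor, 0.84 for lineage, 0.90 for mature B and 0.73 for T and NK genes, against -0.05 for all genes. With the GC trend subtracted these medians became 0.56, 1.07, 0.84 and 0.71, so that the distance of the precursor genes from the mature B genes went from -0.83 to -0.28. With 1 FPKM added, 4 genes were past 3-fold. This comparison and that of the wild-type bones share the wild-type parietal library.

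**Figure D2:**
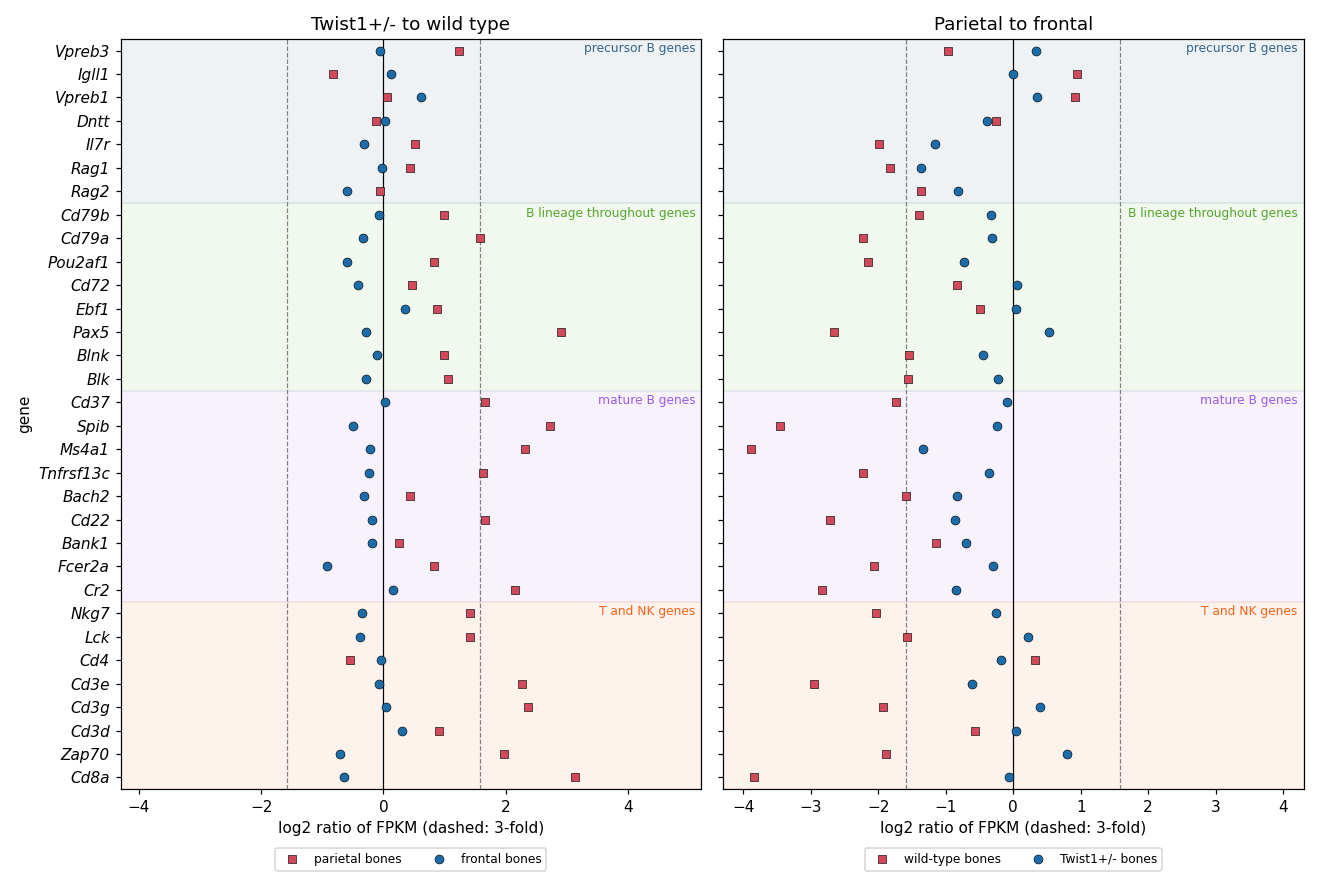
Log2 ratios of FPKM for each gene, *Twist1*+/- to wild type on the left and parietal to frontal on the right, with dashed lines at 3-fold. Red squares use wild-type parietal bone and reach -3.88 (*Ms4a1*, wild-type bones), while the blue circles, which do not use it, all stay within the dashed lines.

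**Figure D3:**
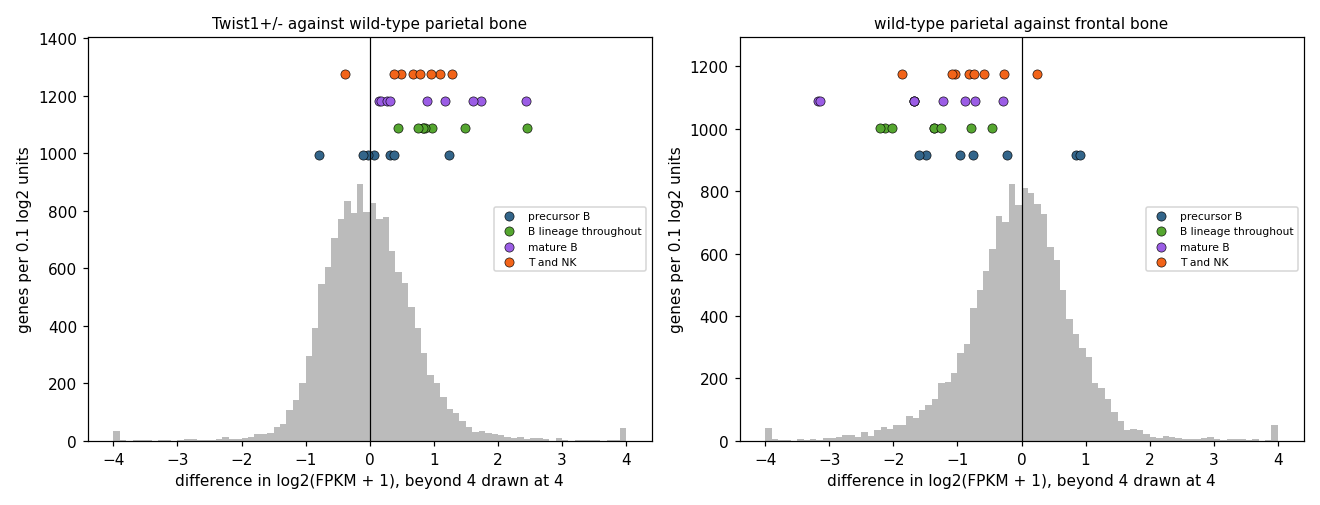
Histograms of the difference in log2(FPKM + 1) over all genes that reached 1 FPKM in either library compared, with the 32 genes as dots above them by group (height separates the groups only). Between wild-type bones the mature B genes have a median of -1.67 and all genes of -0.01.

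The comparisons without the wild-type parietal library gave no member past 3-fold in either direction. Between the frontal bones, 24 of the 32 genes were lower and 8 higher in *Twist1*+/- than in wild type by any amount, of which *Rag1*, *Cd4* and *Cd37* changed sign with scaling or with the GC trend subtracted, with log2 ratios from -0.93 (*Fcer2a*) to 0.62 (*Vpreb1*). Of all 14341 genes at the floor, 7938 were lower and 6403 higher by any amount. Over 3-fold higher were 3.17% and over 3-fold lower 0.725%. The group medians of log2(FPKM + 1) differences were -0.02 for precursor, -0.25 for lineage, -0.20 for mature B and -0.12 for T and NK genes. That of the precursor genes turned to 0.03 when the libraries were scaled to the same median ratio and to 0.07 with the GC trend subtracted. Between labelled *Twist1*+/- parietal and *Twist1*+/- frontal bone, log2 ratios ran from -1.37 (*Rag1*) to 0.80 (*Zap70*), and *Rag1*, *Ms4a1* (-1.34) and *Il7r* (-1.16) were the genes lower by more than 2-fold. In that comparison 0.846% of 14305 genes were over 3-fold higher and 3.24% over 3-fold lower. All 9 mature B genes were lower by some amount, with a median of -0.30, as were 7502 of the 14305 genes.

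The balance of stages within a library does not depend on scaling between libraries. Precursor genes held 28.9% of the summed FPKM of the 32 genes in wild-type frontal, 32.2% in *Twist1*+/- frontal, 38.6% in labelled *Twist1*+/- parietal and 52.1% in wild-type parietal bone. Mature B genes held 23.9%, 23.1%, 19.7% and 10.8% in that order. By these sums the precursor share was higher in both parietal libraries than in the frontal ones, and highest in wild-type parietal bone. Between labelled *Twist1*+/- parietal and *Twist1*+/- frontal bone the group medians in log2(FPKM + 1) were close, at -0.35 for precursor and -0.30 for mature B genes. With the GC trend subtracted they were -0.13 and -0.43. The T and NK genes held between 4.86% and 6.44% in all 4 libraries. Their sum rests chiefly on *Nkg7*, at 24.9 of 37.1 FPKM in wild-type frontal and 6.09 of 12.3 FPKM in wild-type parietal bone. *Cd4* gave 2.52 and 3.15 FPKM of these sums, so the share does not describe the CD3 genes. The sum of precursor genes rests on a few genes of high level, chiefly *Vpreb3*, *Igll1* and *Vpreb1*. The ratio of *Igll1* to *Ms4a1* was 1.11 in wild-type frontal, 1.41 in *Twist1*+/- frontal, 3.58 in labelled *Twist1*+/- parietal and 31.5 in wild-type parietal bone. The ratio of *Rag1* to *Cd79a* showed no such order, at 0.171, 0.213, 0.102 and 0.226, and that of *Igll1* to *Vpreb1* stayed between 1.10 and 2.03. The precursor genes thus differed among themselves, with *Igll1* and *Vpreb1* higher and *Rag1*, *Rag2* and *Il7r* lower in wild-type parietal than in wild-type frontal bone. The GC trend was not subtracted from these shares and ratios. *Rag1* has 44.1% GC and *Cd79a* 54.9%. With the trend subtracted, their log2 ratios of labelled *Twist1*+/- to wild-type parietal bone went from 0.44 to 0.96 and from 1.57 to 1.41.

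**Figure D4:**
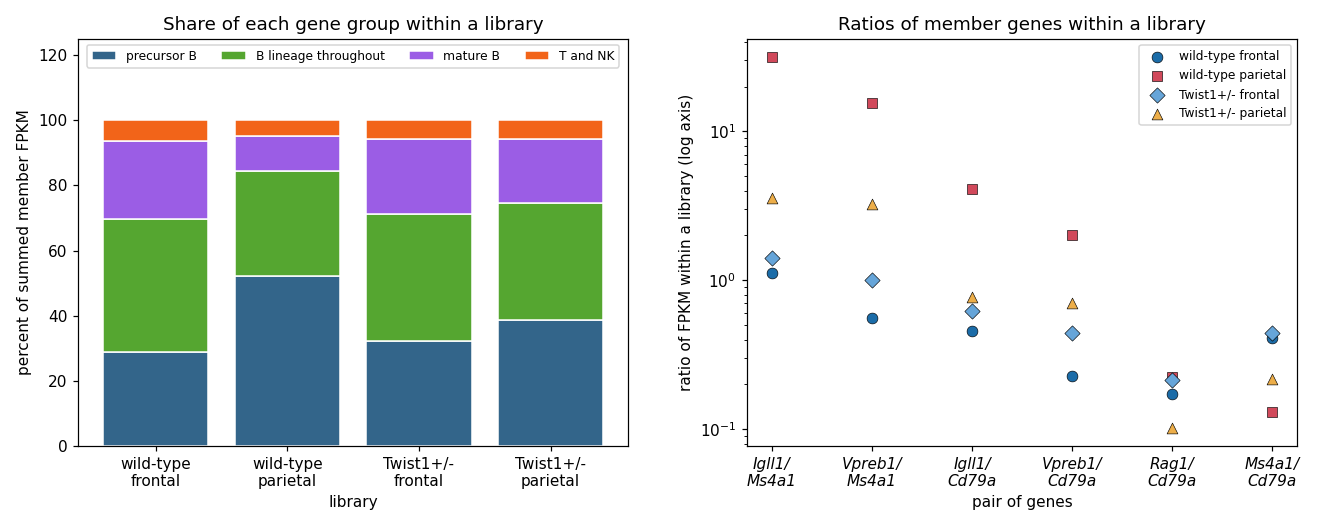
Left, the percent of the summed FPKM of the 32 genes held by each group in each library. Right, ratios of FPKM between pairs of genes within a library on a log axis, where *Igll1* to *Ms4a1* runs from 1.11 in wild-type frontal to 31.5 in wild-type parietal bone.

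Other genes of the same cells were counted from lists made by function. Of all genes at the floor, 9.2% were more than 3-fold lower and 4.07% higher in wild-type parietal than in wild-type frontal bone. Between labelled *Twist1*+/- and wild-type parietal bone 5.25% were higher. A list of 8 or 12 genes with 1 gene past 3-fold is close to these shares. Of 12 further B lineage genes, 5 were more than 3-fold lower between the wild-type bones and 1 was more than 3-fold higher in labelled *Twist1*+/- than in wild-type parietal bone. *Bcl11a*, a factor needed for lymphoid development, was at 11.8, 2.1, 11.5 and 7.47 FPKM. Of 9 further mature B genes, 3 were more than 3-fold lower between the wild-type bones, led by *Faim3* (7.47 against 0.490 FPKM). By any amount 7 of the 9 were lower and 2 higher, among them *Gpr183* (2.74 against 8.07 FPKM). Between labelled *Twist1*+/- and wild-type parietal bone 6 of the 9 were higher and 3 lower. Of 8 plasma cell genes 1 was more than 3-fold lower between the wild-type bones, *Derl3*. By that factor 1 was higher, *Sdc1*, which many other cells express (18.9 against 64.0 FPKM). Of 12 further T cell genes, 7 of them at the floor, only *Cd27* was more than 3-fold lower. Of 10 NK and cytotoxic genes 5 were. The largest differences among the 10 were those of *Eomes* (5.22 against 0.282 FPKM) and *Tbx21* (2.76 against 0.0501 FPKM), which encode factors that NK cells use. By any amount 9 of the 10 were lower and 1 higher, with a median of -0.74 in log2(FPKM + 1), and *Gzmb* was nearly level (0.239 against 0.221 FPKM). *Eomes* and *Tbx21* were also lower in *Twist1*+/- than in wild-type frontal bone, at 2.12 and 0.961 FPKM in *Twist1*+/-. The median of the 10 genes in that comparison was -0.22. Which cells the RNA of *Eomes* and *Tbx21* came from was not tested. *Cxcl12*, the chemokine of stromal cells that keeps B cell precursors in marrow, was at 311 FPKM in frontal and 128 in parietal bone of wild type, and at 421 in frontal and 371 in labelled parietal bone of *Twist1*+/-. *Il7* was at 1.62, 0.526, 2.47 and 1.53 FPKM, and it too was lowest in wild-type parietal bone. Both belong to a list of 7 genes of the B cell niche. Of these 7, *Il7* alone was more than 3-fold lower in wild-type parietal than in wild-type frontal bone. By any amount 5 were lower and 2 higher.

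Neutrophil, erythroid and dividing-cell genes were also lower in parietal than in frontal bone of wild type, whereas the 9 macrophage genes were higher, and of 6 progenitor genes 4 were lower and 2 higher. The 12 neutrophil genes had a median difference of -1.26 in log2(FPKM + 1), with 5 more than 3-fold lower in parietal bone, and the 10 erythroid genes one of -2.48, with 9 lower. The 10 genes of dividing cells had a median of -1.09. Between labelled *Twist1*+/- and wild-type parietal bone, the medians were 0.86 for neutrophil and 0.95 for erythroid genes, against 0.84 and 0.90 for the lineage and mature B genes. With the GC trend subtracted they were 0.87 for neutrophil, 1.34 for erythroid, 1.07 for lineage and 0.84 for mature B genes. Between the frontal bones they parted, since the erythroid median was -1.09 and that of neutrophil genes 0.16. The summed FPKM of neutrophil genes was 15547 in wild-type frontal and 7584 in wild-type parietal bone, and that of erythroid genes 1691 and 636. The part of the amount of marrow in each library in the B and T cell results was not tested.

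**Figure D5:**
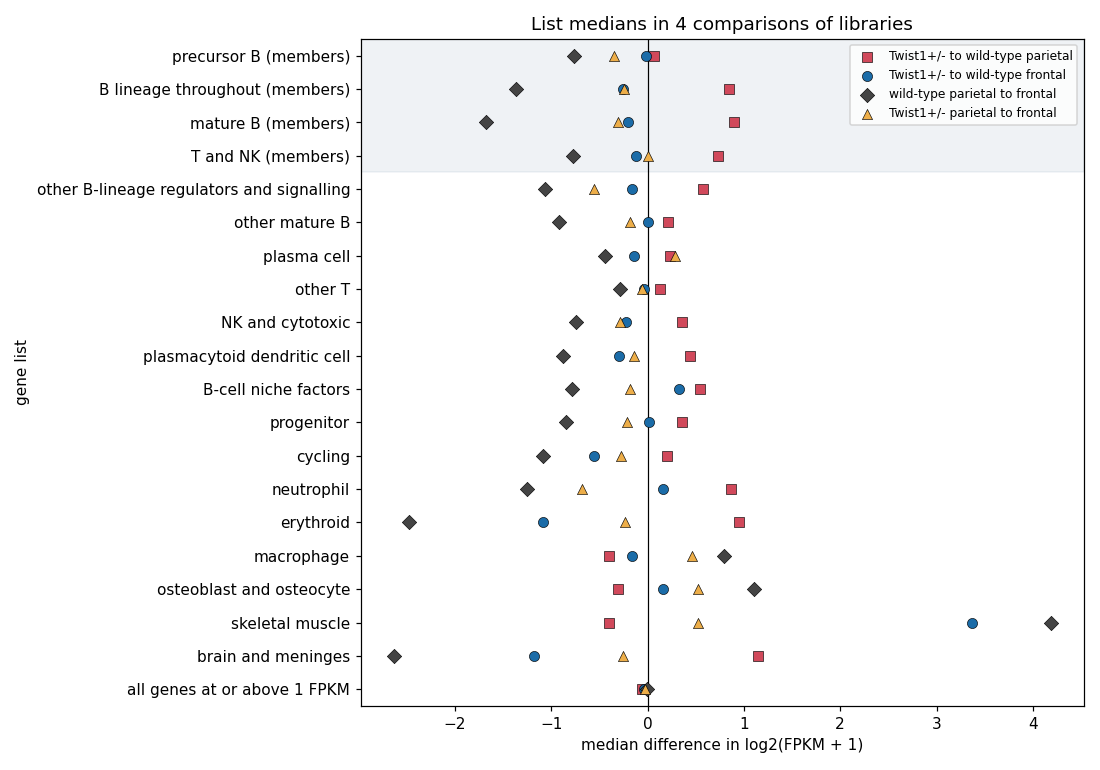
Median difference in log2(FPKM + 1) of each gene list in the 4 comparisons of libraries, with the 32 genes in the shaded rows and the median of all genes at or above 1 FPKM at the bottom. Between wild-type bones (dark diamonds) the mature B median (-1.67) lies between those of neutrophil (-1.26) and erythroid genes (-2.48), and precursor genes lie nearer to 0 (-0.76).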

How the data were processed

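Bulk RNA-seq of 4 libraries was analysed. The authors aligned single-end reads to mm9 with STAR 2.4.2a, took the annotation from iGenomes and quantified genes with Cuffdiff of Cufflinks 2.2.1. The deposited values are FPKM, 1 per gene symbol and library, as the files give them. The scaling option is not given in the sources used here. Libraries were assigned to genotype and bone by their labels.

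The 32 genes, their groups and the other lists were chosen with earlier results of these data known. All 32 genes, *Twist1* and at most 2 genes of each other list per comparison were to be named. *Gzmb*, *Bglap*, *Sp7*, *Dmp1*, *Vpreb2* and *B230118H07Rik* were named in addition, after their values were seen. A further gene that the rule names is not reported here. A gene was called when its FPKM ratio exceeded 3-fold with at least 1 FPKM in the higher library. Group differences are medians of log2(FPKM + 1) differences. There is no test, since each condition has 1 library, and replicate error is unknown. The depth of each library is unknown from FPKM, and no interval is given. From genes between 0.005 and 0.1 FPKM, 1 read was worth about 1.28 times as many FPKM in *Twist1*+/- as in wild-type frontal bone and 1.02 times in the parietal comparison, with 1.73 between the wild-type bones, where the estimate was weakest.

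GC content, positions and shared windows came from GENCODE M1 on mm9 (GC for all 32 genes and 80.8% of all genes), and promoters from RefSeq on GRCm38.p6. Pairs were recomputed with pseudocounts of 1 and 0.1 FPKM, no floor or 10 FPKM, a 2-fold limit, scaling to the same median ratio, genes above 0, and the GC trend in 20 groups subtracted. Scripts (Python 3.11.15, pandas 2.3.3) were tested on simulated data.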

Additional observations from a re-analysis of the deposited data

Results flagged for a closer look

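For 11 of the 30 genes that reached 1 FPKM the log2 ratio of *Twist1*+/- to wild type had opposite signs in the parietal and the frontal bones, with a distance of more than 3-fold between them. The share of all genes that meet this rule was not computed, so whether 11 of 30 is unusual is unknown. The distances, parietal minus frontal, were 3.22 for *Spib*, 3.19 for *Pax5*, 2.69 for *Zap70*, 2.54 for *Ms4a1*, 2.35 for *Cd3e*, 1.91 for *Cd79a*, 1.87 for *Tnfrsf13c*, 1.85 for *Cd22*, 1.80 for *Lck*, 1.77 for *Nkg7* and 1.76 for *Fcer2a*. In each of them the ratio was above 0 between the parietal and below 0 between the frontal bones. The frontal ratios were small, from -0.93 (*Fcer2a*) to -0.07 (*Cd3e*). The group medians in log2(FPKM + 1) also had opposite signs, with distances of 0.083 for precursor, 1.09 for lineage, 1.10 for mature B and 0.85 for T and NK genes. With 1 library per condition these differences were not tested.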

How the results depend on the processing

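No paired analysis was possible because each genotype and bone has 1 library. Without the wild-type parietal library neither the parietal comparison nor that of the wild-type bones can be formed. The count of genes past 3-fold in the parietal comparison (8) became 4 with 1 FPKM added, 3 with a floor of 10 FPKM and 13 at a 2-fold limit, and that between the wild-type bones (16) became 10 with 1 FPKM added and 7 with a floor of 10 FPKM. Between the *Twist1*+/- bones it went from 0 to 3 at 2-fold. The other 26 recomputed counts were within 1.5 times the first. With a pseudocount of 0.1 FPKM the parietal medians were 1.52 for mature B and 1.55 for T and NK genes, the distance of precursor from mature B genes was -1.46, and the median of T and NK genes between wild-type bones was -1.65. Adding 1 FPKM shrinks differences between low values more than adding 0.1 FPKM does. The median level in wild-type parietal bone was 1.40 FPKM for mature B and 0.596 for T and NK genes. The other 77 medians and 19 distances moved by less than 1.5-fold.

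With each gene weighted equally by its share of its own sum over the libraries, precursor genes had 30.1% in frontal and 20.2% in parietal bone of wild type, and 28.2% and 21.6% in those of *Twist1*+/-. T and NK genes had 32.5%, 11.4%, 27.5% and 28.6%. This is a level across libraries and not a balance within one, so it orders the libraries otherwise. No gene past 3-fold changed direction. Low values, as for *Cr2* and *Cd8a*, rest on few reads.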
